A study of Homo sapiens with 8 samples.

Results

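EZH2 islands of the lymphoma line HT that lay over neither histone mark of HT, and that had no EZH2 counterpart in the line SUDHL6, numbered 604 of the 2508 autosomal HT EZH2 islands (24.1%, exact Clopper-Pearson 95% interval 22.4 to 25.8%). They covered 2.45 Mb, which was 22.5% of the HT EZH2 length. An island was chosen by its overlaps: it shared no base with any island of SUDHL6 EZH2, HT H3K27me3 or HT H3K4me3. A further 3 islands of chromosome X met these overlaps and were left out, since only chromosomes 1 to 22 were used. The other HT EZH2 islands were 289 with an overlapping EZH2 island in SUDHL6, 975 of HT alone with HT H3K27me3, and 640 of HT alone with HT H3K4me3 and no HT H3K27me3.

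HT and SUDHL6 are established cell lines from diffuse large B cell lymphoma, a cancer of mature B cells, and both were grown in culture and left untreated. Chromatin of each line was immunoprecipitated with antibodies to EZH2, H3K27me3 and H3K4me3, with 1 library for each line and antibody. A list of islands, meaning stretches where the peak caller found enrichment, was deposited for each of the 6 libraries. The 2 input libraries were not analysed here, no source used here states the sequencing depth, and an annotation of hg19 was not used. Hence islands were not assigned to genes and the cell type was not checked against marker genes. With no replicate, no test was made between lines or between classes of islands, and a failure to call an island cannot be told apart from absence of the protein or mark. Intervals cover counting error only.

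EZH2 is the enzyme of Polycomb repressive complex 2 that places methyl groups on lysine 27 of histone H3. The trimethylated form, H3K27me3, typically coats repressed developmental genes in broad stretches, and EZH2 is generally found within them. In germinal centre B cells, the cells from which many such lymphomas arise, EZH2 is highly expressed and restrains genes of plasma cell differentiation and of cell cycle arrest. H3K4me3 is placed by other enzymes and marks the starts of active or poised genes. An EZH2 island without H3K27me3 therefore departs from this general picture. In the HT lists it was common, since 50.9% of all HT EZH2 islands lay over 0.6 kb from any HT H3K27me3 island.

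The islands without either mark had widths close to those of the other HT-only classes, and their scores were low for the HT EZH2 list. Their median width was 3450 bp (95% interval of the median 3300 to 3600 bp), with 10% at or below 1950 bp and 10% at or above 6300 bp. The narrowest was 750 bp and the widest 36900 bp. Median widths in the other classes were 3600 bp with H3K4me3, 3600 bp with H3K27me3 and 4650 bp for EZH2 of both lines. Islands of 10 kb or wider numbered 14 (2.32%, 1.27 to 3.86%), against 3.43% of all HT EZH2 islands.

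The score that the authors gave each island, a whole number that no source used here defines, had a median of 42 among these islands, between 24 and 590. It was 50 with H3K4me3, 59 with H3K27me3 and 78 for EZH2 of both lines. Divided by width, the median was 12.7 per kb (12.4 to 12.98), with 10th and 90th percentiles of 10.0 and 17.8. The corresponding medians were 13.97 with H3K4me3, 16.5 with H3K27me3 and 18 for EZH2 of both lines, so the islands without marks had the lowest. Their values overlapped widely with those of the other classes, whose 10th percentiles were 11.3, 12.3 and 13.5 per kb.

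A score per kb under 10 was found in 56 of the islands (9.27%, 7.08 to 11.9%), where it was found in 2.83% of all HT EZH2 islands. Above 20 per kb there were 28 (4.64%, 3.10 to 6.63%), against 16.0% of all. By total score, 66 lay above the 75th percentile of the HT EZH2 list (10.9%, where 24.9% of all islands did), and the median island stood at percentile 30.3. Scores of 30 or less were given to 43 (7.12%, 5.20 to 9.47%), against 3.95% of all HT EZH2 islands.

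**Figure D1:**
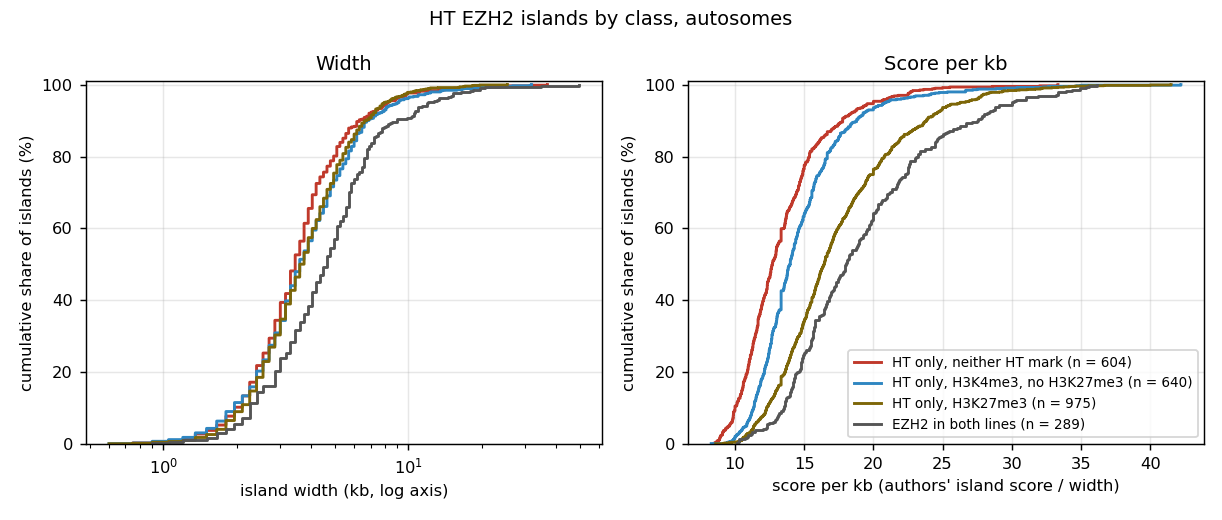
Cumulative share of HT EZH2 islands (%) against island width (kb, log axis, left) and against score per kb (right), with 1 line for each of the 4 classes. The widths of the islands without either mark (red) run close to the other HT-only classes, whereas their scores per kb lie to the left, with a median of 12.7.

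The lower score per kb was seen at like width too. Among islands over 2 kb and up to 4 kb wide, the median was 13.02 per kb for the 334 without marks, 14.5 for 288 with H3K4me3, 16.7 for 472 with H3K27me3 and 17.4 for 95 of both lines. Between 4 and 6 kb the medians were 11.1, 12.7, 15.5 and 17.9 in the same order. At 2 kb or less the value for the 62 islands without marks, 18.8, was close to the 18.9 of the 74 with H3K4me3.

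The called islands of any given width had a lowest score, below which nothing was listed. Set against the lowest score of HT EZH2 islands within 450 bp of their own width, the islands without marks had a median of 1.35 times that minimum. The medians were 1.5 with H3K4me3, 1.76 with H3K27me3 and 1.98 for EZH2 of both lines. Less than 1.5 times the minimum was reached by 435 of 591 (73.6%), compared with 41.1% of all 2443 HT EZH2 islands that had at least 20 islands of like width. Most of the islands thus lay near the lower edge of what was called, while 154 (25.5%) were among the 50% of HT EZH2 islands with the highest scores. Across the 604 islands, which all come from 1 library, score per kb tended to be lower in wider islands (Spearman rho = -0.63, as a description). Width is the divisor of this value, so part of the relation is built in. The medians did not fall above 4 kb: 11.1 up to 6 kb, 11.4 up to 10 kb and 13.1 beyond. In the other classes rho was -0.59 with H3K4me3, -0.29 with H3K27me3 and -0.09 for EZH2 of both lines.

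**Figure D2:**
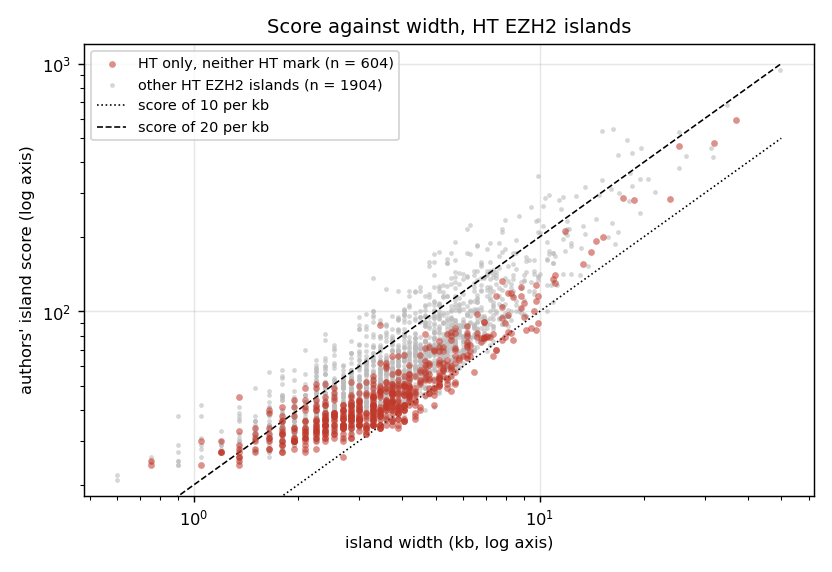
The authors' island score (log axis) against island width (kb, log axis) for 604 HT-only EZH2 islands without either mark (red) and all other HT EZH2 islands (grey), with lines at 10 and 20 per kb. Most red points lie near the lower edge of the grey ones, while 146 (24.2%) are in the top 50% of HT EZH2 islands by score per kb. The highest score among the red points is 590.

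The widest members did not all have low scores per kb, since 7 of the 10 widest had a score per kb above the median of all 604. The first was chr2:54990301-55027200, with a width of 36.9 kb, a score of 590 and 15.99 per kb. Another HT EZH2 island lay 3.45 kb from it, SUDHL6 H3K4me3 lay 6.45 kb away, HT H3K4me3 21.9 kb and HT H3K27me3 276 kb. Within 500 kb on each side, HT EZH2 covered 125.4 kb in 6 islands and SUDHL6 EZH2 had 0 islands. H3K27me3 there covered 32.7 kb in HT and was not called in SUDHL6, and H3K4me3 covered 41.7 kb in HT and 19.95 kb in SUDHL6. All antibodies had more called in HT around this island, and copy number was not measured.

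The next 2 in width lay on the long arm of chromosome 11. The island chr11:116797651-116829600 was 31.95 kb wide with 14.9 per kb, and its nearest mark was HT H3K4me3 at a distance of 73.8 kb. HT H3K27me3 covered 245 kb and SUDHL6 H3K27me3 47.2 kb within 500 kb on each side, while the island itself was free of both. The island chr11:118687651-118713000 was 25.35 kb wide and had the highest score per kb of the 10, 18.4. Another island of the same 10 Mb, chr11:111918451-111935850, was 17.4 kb wide with 16.4 per kb and had HT and SUDHL6 H3K4me3 at the same distance of 7.65 kb. Around all 3, HT H3K4me3 covered more than SUDHL6 H3K4me3: 43.95 kb against 16.05 kb, 126.9 kb against 55.5 kb, and 51.45 kb against 20.4 kb. H3K27me3 did not go the same way around all 3. Around chr11:118687651-118713000 it covered 58.5 kb in HT and 65.4 kb in SUDHL6. Around chr11:111918451-111935850 it covered 164.95 kb in HT and was not called in SUDHL6.

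On chromosomes 7 and 16 the neighbourhoods of the widest members went the other way for H3K4me3, which is the more usual direction. Within 500 kb on each side, SUDHL6 H3K4me3 covered more than HT H3K4me3 around 352 of the 604 members (58.3%). The same held for 59.8% of all HT EZH2 islands. The island chr7:74173651-74197500 (23.85 kb, 11.9 per kb) was covered to 11.9% by SUDHL6 H3K4me3, and H3K4me3 within 500 kb on each side came to 26.25 kb in HT and 74.25 kb in SUDHL6. Chromosome 16 held 3 of the 10 widest. These were chr16:21843451-21862200 (18.75 kb, 14.99 per kb), chr16:29536651-29551950 (15.3 kb, 13.01 per kb) and chr16:21367351-21381900 (14.55 kb, 13.2 per kb). SUDHL6 H3K4me3 covered 6.86% of the second and 14.4% of the third of these. H3K4me3 around the 3 islands covered 32.4, 36.3 and 25.5 kb in HT and 47.1, 72.45 and 32.1 kb in SUDHL6.

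The remaining 2 of the 10 widest were chr2:54323701-54337800 (14.1 kb, 12.3 per kb) and chr21:48105151-48118500 (13.35 kb, 11.7 per kb). The former lay 3.3 kb from HT H3K4me3 and 3.45 kb from SUDHL6 H3K4me3. The latter was the last island of any list on chromosome 21, with HT H3K27me3 16.8 kb away.

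The members with the highest score per kb were a different set, with 0 in common with the 10 widest, and 8 of the 10 were under 2 kb wide. The leading ones were chr12:96883201-96883950 and chr20:62643001-62644350, both at 33.3 per kb, with total scores of 25 and 45. They were followed by chr3:196255501-196256250 at 32.0 per kb, which was covered to 100% by SUDHL6 H3K4me3, and chr1:35331451-35332500 at 28.6 per kb, covered to 100% by SUDHL6 H3K27me3. The island chr11:48816151-48819600 combined 25.5 per kb with a score of 88 over 3.45 kb, and its nearest mark was HT H3K4me3 at 19.05 kb. The other 5 were chr1:161493301-161494500 (25 per kb), chr11:116836951-116838300 (24.4), chr1:36273301-36274950 (24.2), chr9:20683651-20685300 (23.6) and chr8:28180951-28183050 (23.3). Of the 10, 4 had a total score of 30 or less, which places them among the lowest total scores of the list. SUDHL6 H3K4me3 covered 72.7% of the island at 36 Mb of chromosome 1 and 63.6% of that on chromosome 9.

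H3K4me3 was the mark most often found near these islands. The nearest HT H3K4me3 island lay at a median of 30.9 kb, with 10th and 90th percentiles of 3.3 and 197 kb. For HT H3K27me3 the median was 97.5 kb, with 10.3 and 417 kb. Within 5 kb there was HT H3K4me3 for 90 islands (14.9%) and HT H3K27me3 for 33 (5.46%). Either of the 2 lay within 5 kb of 122 islands (20.2%, 17.1 to 23.6%) and within 1 kb of 21 (3.48%). Of all HT EZH2 islands, 80.5% had one within 5 kb, a figure that the choice of islands sets in large part, since it includes those overlapped by a mark.

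Members at the edge of the rule were few. One island touched an HT H3K27me3 island without sharing a base, 3 had 150 bp and 3 had 300 bp to the nearest island of the 3 lists used for the choice. Just beyond the rule, 8 HT EZH2 islands shared 150 bp and 5 shared 300 bp with those lists. Median scores per kb were 12.6, 14.9 and 15.6 for the former groups and 13.1 and 12.6 for the latter.

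In SUDHL6, whose histone marks took no part in the choice, most of the same places were unmarked as well. H3K27me3 of SUDHL6 overlapped 28 of the 604 islands (4.64%, 3.10 to 6.63%), where it overlapped 20.2% of all HT EZH2 islands. The share was 26.6% (23.8 to 29.5%) for HT-only islands with HT H3K27me3 and 2.34% (1.32 to 3.84%) for those with H3K4me3 alone. H3K4me3 of SUDHL6 overlapped 70 (11.6%, 9.15 to 14.4%), against 39.8% of all HT EZH2 islands, 86.25% (83.3 to 88.8%) of those with HT H3K4me3, and 20.9% (18.2 to 23.8%) of the 833 with HT H3K27me3 and no HT H3K4me3. Since H3K4me3 lay on the islands in both lines in so many cases, the choice on the HT mark bears on the SUDHL6 share. The choice bears on the H3K27me3 share too, as SUDHL6 H3K27me3 overlapped 70.6% of the EZH2 islands of both lines. The overlap to be met by places without EZH2 was not computed.

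Neither SUDHL6 mark overlapped 509 islands (84.3%, 81.1 to 87.1%), where neither overlapped 44.1% of all HT EZH2 islands. That background is set in part by the choice. It was 12.5% with H3K4me3, 48.7% with H3K27me3 and 14.5% for EZH2 of both lines. Both SUDHL6 marks overlapped 3 members (0.497%), against 4.03% of all HT EZH2 islands. The 28 islands over SUDHL6 H3K27me3 had a median of 14.8 per kb, the 70 over SUDHL6 H3K4me3 one of 13.7, and the 509 over neither one of 12.5. In 15 of the 28 and 33 of the 70, the SUDHL6 mark covered 50% of the island or more. The 28 lay at a median of 28.4 kb from HT H3K27me3, nearer than the 104 kb of the 509. For the 70, HT H3K4me3 was at a median of 23.3 kb, and 15 of them had it within 5 kb.

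The median distance to SUDHL6 H3K4me3 was 27 kb and that to SUDHL6 H3K27me3 was 143 kb, so the order of the marks was the same as in HT. The tail of the H3K27me3 distances was longer in SUDHL6, with 10% of islands beyond 2748 kb, against 417 kb for HT H3K27me3. The nearest island of the 4 mark lists was SUDHL6 H3K4me3 for 252 islands, HT H3K4me3 for 195, HT H3K27me3 for 94 and SUDHL6 H3K27me3 for 85, with 22 ties counted in each. The choice barred overlap by the HT marks and not by the SUDHL6 marks, so the counts of the 2 lines cannot be compared. The 70 islands over SUDHL6 H3K4me3 and the 28 over SUDHL6 H3K27me3 stand at a distance of 0 from a SUDHL6 mark. They enter the SUDHL6 counts and medians, whereas no member could overlap an HT mark. These counts also move with the number of islands in each list, which was 13281, 10593, 16851 and 13117 on the autosomes. H3K4me3 thus led although the longest list was that of HT H3K27me3.

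**Figure D3:**
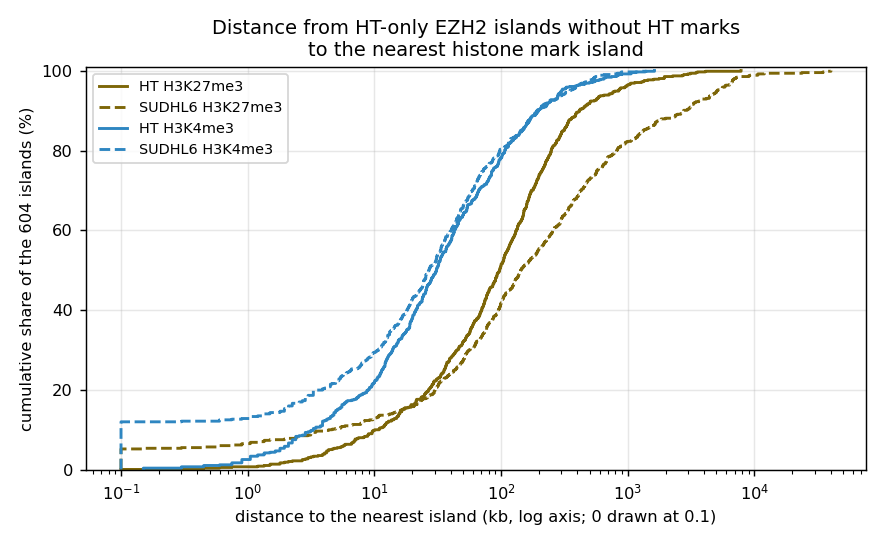
Cumulative share of the 604 islands (%) against the distance to the nearest island of HT H3K27me3, SUDHL6 H3K27me3, HT H3K4me3 and SUDHL6 H3K4me3 (kb, log axis, with 0 drawn at 0.1 kb). The H3K4me3 lines of both cell lines run together with medians of 30.9 and 27 kb, and the H3K27me3 lines lie to the right with medians of 97.5 and 143 kb.

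Islands that also lack the mark in question give a nearer comparison. HT H3K27me3 lay at a median of 79.8 kb from the HT-only islands with H3K4me3 alone, against 97.5 kb from those without marks. HT H3K4me3 lay at a median of 71.25 kb from the 833 HT-only islands with H3K27me3 and no H3K4me3, against 30.9 kb here. The share with HT H3K4me3 within 5 kb was 3.24% in that class and 14.9% here. The islands without marks were thus nearer to H3K4me3 than the islands in H3K27me3 were. No test was made of this difference, since islands of 1 library are not replicates.

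H3K27me3 lay on both sides of fewer of these islands than H3K4me3 did. HT H3K27me3 lay within 50 kb on both sides of 46 islands (7.62%) and on 1 side of 147 (24.3%), whereas HT H3K4me3 did so for 121 (20.03%) and 264 (43.7%). In SUDHL6, H3K27me3 lay on both sides of 37 (6.13%) and H3K4me3 of 130 (21.5%). These shares within 50 kb were computed for the members only, so they give no comparison with the other classes. Within 500 kb on each side, HT H3K27me3 covered a median of 21.6 kb around the islands without marks, 24.9 kb around those with H3K4me3 and 36.75 kb around those with H3K27me3, whose own overlaps are counted in that value. HT H3K27me3 was absent from this span for 50 islands (8.28%) and SUDHL6 H3K27me3 for 164 (27.2%), against 3.55% and 20.8% of all HT EZH2 islands. The choice sets the 3.55% in large part, since islands overlapped by HT H3K27me3 are counted in it. Among the HT-only islands with H3K4me3, which also lack HT H3K27me3, the shares were 5.94% and 22.97%. Around the islands without marks, HT H3K4me3 covered a median of 15.8 kb in this span and was absent for 18 (2.98%).

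Distance from the marks went with little change in width. The 231 islands within 5 kb of any mark of either line had a median width of 3300 bp and 13.3 per kb. The values were 3450 bp and 12.7 per kb for 165 islands over 5 and up to 20 kb away, 3450 bp and 12.2 per kb for 173 over 20 and up to 100 kb away, and 3450 bp and 11.6 per kb for 35 beyond 100 kb. Those 35 were 5.79% (4.07 to 7.97%) of the islands, and 1.40% of all HT EZH2 islands, and all of those were members. The other HT-only classes overlap a mark by definition, and of the 289 islands of both lines the farthest from any mark lay at 18.45 kb. None of the 35 was 10 kb or wider. Only 14 of the 604 islands (2.32%) were that wide, so the 35 are too few for this absence to be read further.

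The 10 members farthest from both marks in both lines had a median width of 3450 bp, that of all 604, and a median score of 40, near the 42 of all 604. The first 6 were chr13:93379351-93383250 at 892 kb, chr4:189971701-189973800 at 815 kb, chr3:21292801-21296400 at 559.5 kb, chr2:41741851-41746200 at 507 kb, chr5:83570701-83574000 at 479 kb and chr6:81278401-81281400 at 461 kb. Each was the only HT EZH2 island within 500 kb on either side. The next 4 lay near 200 kb from a mark: chr10:53665651-53670600 at 206 kb, chr20:51855601-51859500 at 203 kb, chr10:92347951-92351250 at 193.2 kb and chr11:88501951-88503600 at 192.9 kb. The 10 were 1650 to 4950 bp wide with scores of 32 to 44. Their scores per kb ran from 8.48 on chromosome 10 to 19.4 on chromosome 11, and the chromosome 4 island had 19.05.

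Few of the islands lay in or beside long stretches free of other islands. A total of 285 stretches of 1 Mb or more held no island of the other 5 lists, amounting to 519 Mb, and the longest was 21.1 Mb. Inside them lay 9 islands and within 100 kb of their ends another 5, together 14 of 604 (2.32%, 1.27 to 3.86%), against 1.44% of all HT EZH2 islands. Only members can lie inside, by the rule. Outside but within 100 kb were 5 members (0.828%), 11 islands with H3K4me3 (1.72%), 8 with H3K27me3 (0.821%) and 3 of both lines (1.04%). None of the 30 stretches of 3 Mb or more held a member, which by the limit of 3 counts in 604 allows a share of up to 0.497% of the islands, and 1 member lay within 100 kb of such a stretch. Gaps of the assembly, where no island can be called, were not taken out of the stretches. How much of the 519 Mb they make up was not computed, so the absence of members there is not read further. The 9 members inside were 2100 to 4350 bp wide, with scores of 31 to 49 and a median of 11.7 per kb.

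The longest stretch with a member close by ran from 16099951 to 19591950 of chromosome 12 (3.49 Mb), and the member chr12:19642801-19646100 lay 50.85 kb beyond it. On chromosome 13, the stretch from 92487301 to 94740600 (2.25 Mb) held the member farthest from the marks, and the one from 86296351 to 88323150 (2.03 Mb) ended 5.55 kb before chr13:88328701-88330950. The latter member had 22.7 per kb and an HT H3K4me3 island at 0.75 kb, with SUDHL6 H3K4me3 only at 1412 kb. Next came the stretches from 83091601 to 84955200 of chromosome 5 (1.86 Mb) and from 189156301 to 190858950 of chromosome 4 (1.70 Mb), each with 1 member inside, both named above.

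Members mostly lay alone. Another member was found within 100 kb for 96 islands (15.9%, 13.1 to 19.1%), where 11.2% of all HT EZH2 islands had a member that near. A member was that near to 15.2% of the HT-only islands with H3K4me3, a share close to that of the members. It was 6.87% with H3K27me3 and 7.61% for EZH2 of both lines. The 96 members formed 45 groups, of which 40 were pairs. The share of islands with another of their own class within 100 kb was 16.1% (13.3 to 19.2%) with H3K4me3, 22.9% (20.3 to 25.6%) with H3K27me3 and 20.1% (15.6 to 25.2%) for EZH2 of both lines. These shares also move with class size. An HT EZH2 island of any class lay within 100 kb of 229 members (37.9%), against 39.1% of all HT EZH2 islands, a share near the background. The nearest HT EZH2 island was another member for 31.5%, one with H3K27me3 for 32.5%, one with H3K4me3 for 29.5% and one of both lines for 6.62%. Members made up 24.1% of all HT EZH2 islands. For the HT-only islands with H3K4me3 the shares were similar, at 29.2%, 34.8%, 25.2% and 10.8% in the same order.

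The largest group held 4 members over 137 kb, from 46066951 to 46203750 of chromosome 20. They were chr20:46066951-46069650 (score 35), chr20:46081351-46083600 (33), chr20:46134451-46136850 (38) and chr20:46198801-46203750 (53). H3K27me3 of either line was not called within this span, whereas HT H3K4me3 covered 4.2 kb in 2 islands and SUDHL6 H3K4me3 12.3 kb in 4. SUDHL6 H3K4me3 covered the third member to 100% and the last to 3.03%, and the third lay 1.8 kb from HT H3K4me3. Another HT EZH2 island, not a member, lay 1.8 kb from the third as well.

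Of the 4 groups of 3 members, the one with the most length covered by members (25.95 kb) lay from 29536651 to 29583300 of chromosome 16. It joined the 15.3 kb island named above with chr16:29556601-29564400 (7.8 kb, score 104) and chr16:29580451-29583300 (2.85 kb, score 40). SUDHL6 H3K4me3 covered 10.8 kb of the span in 4 islands and HT H3K4me3 was not called in it. On chromosome 11 the members were chr11:65812651-65814000, chr11:65879101-65885250 and chr11:65915101-65917500, with scores of 26, 73 and 32. There HT H3K4me3 covered 5.55 kb, SUDHL6 H3K4me3 7.95 kb and SUDHL6 H3K27me3 1.35 kb of the span. The chromosome 5 group held chr5:176564101-176566350, chr5:176613751-176617200 and chr5:176654251-176656800, with scores of 33, 40 and 31. The only other island in its span was one of HT H3K4me3 (3.9 kb). The first of these members had SUDHL6 H3K4me3 at 1.05 kb and HT H3K4me3 at 1.8 kb, and the last had HT H3K4me3 at 1.05 kb. In the chromosome 8 group (chr8:28024801-28029300, chr8:28092751-28093800 and chr8:28180951-28183050, scores 53, 24 and 49), no island of the other 5 lists lay within the 158 kb span.

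**Figure D4:**
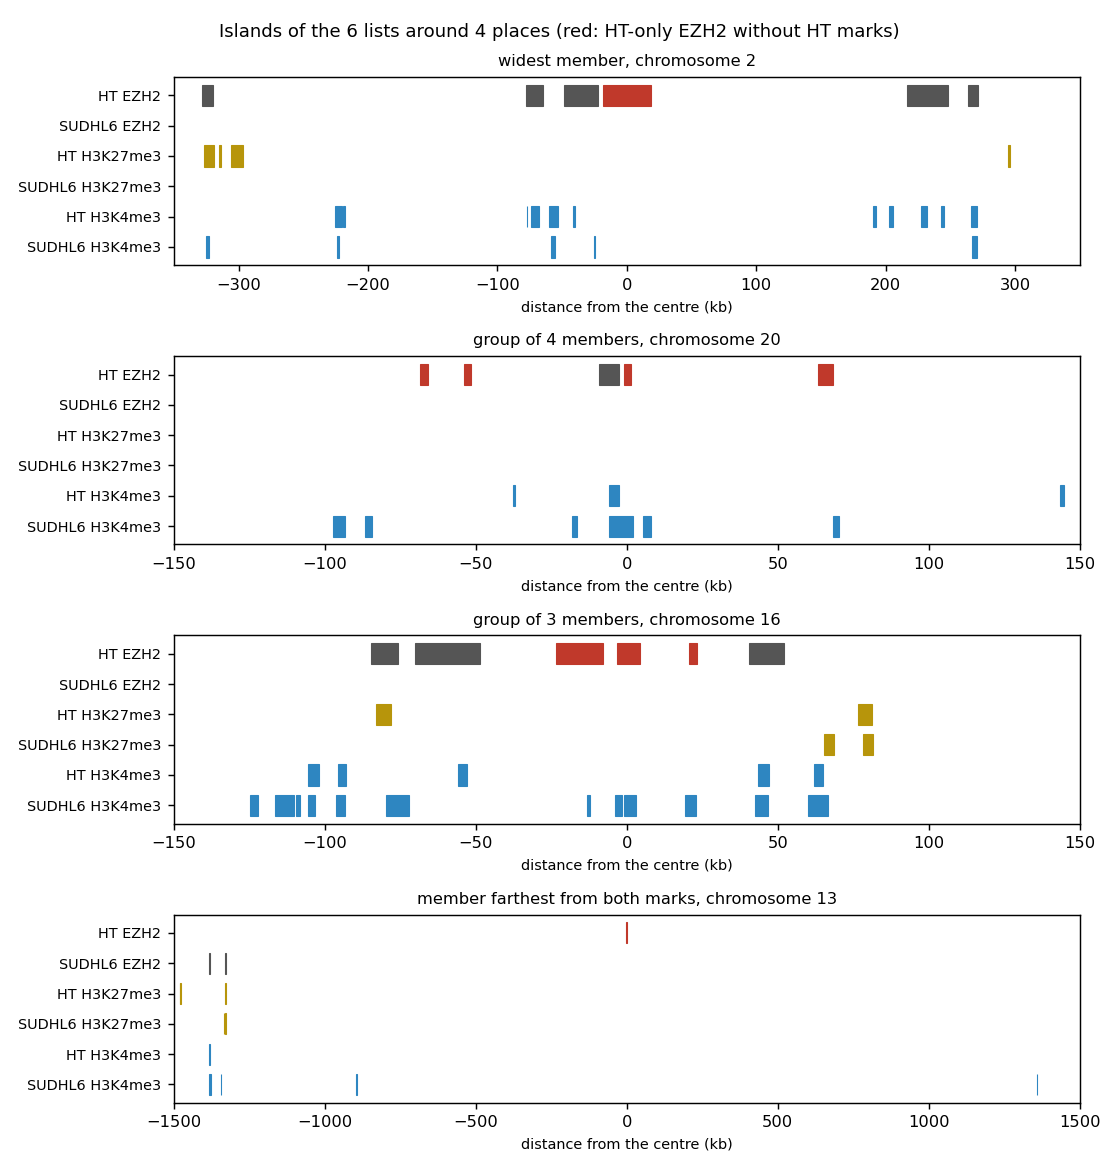
Islands of the 6 lists (rows) against the distance from the centre of each place (kb), for the widest member, the group of 4 members on chromosome 20, the group of 3 members on chromosome 16 and the member farthest from both marks. Members are red, other EZH2 islands grey, H3K27me3 yellow and H3K4me3 blue. The chromosome 13 member stands alone, with the nearest mark 892 kb away.

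Members were found on each of the 22 autosomes, from 9 on chromosomes 21 and 22 to 69 on chromosome 1. As a share of the HT EZH2 islands of a chromosome they ranged from 15.0% on chromosome 2 (17 of 113, 9.01 to 22.99%) to 36.4% on chromosome 18 (16 of 44, 22.4 to 52.2%). The interval lay wholly above the 24.1% of all autosomes on 2 chromosomes: chromosome 3 with 35% (27.1 to 43.5%, 49 of 140) and chromosome 5 with 34.97% (27.2 to 43.4%, 50 of 143). On 2 it lay wholly below, on chromosome 2 and on chromosome 6 with 15.1% (10.1 to 21.4%, 26 of 172). These are 4 of 22 intervals, uncorrected for their number. Within 10 Mb of the outermost islands of a chromosome lay 17.5% of the members and 18.4% of all HT EZH2 islands, nearly the same share.

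**Figure D5:**
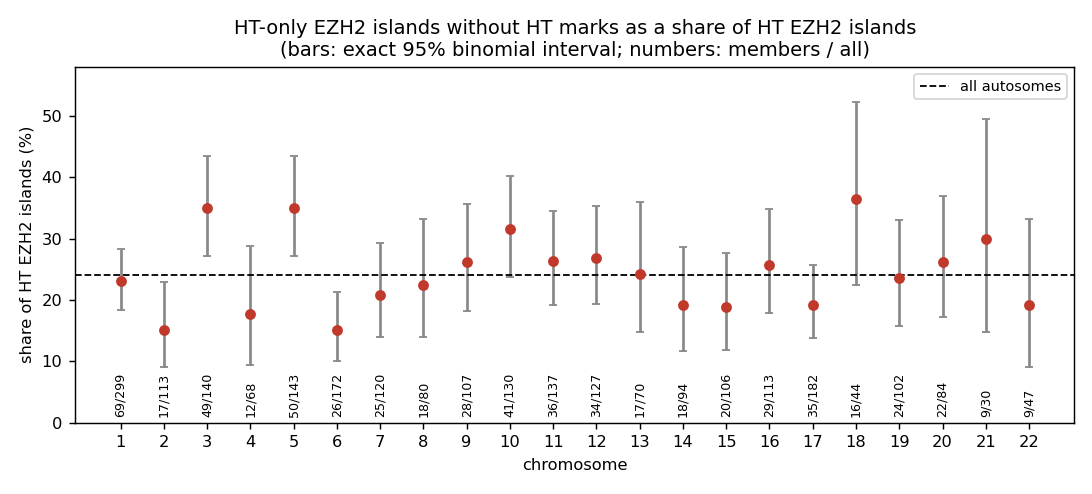
Members as a share of the HT EZH2 islands of each autosome (%, points) with exact 95% binomial intervals (bars), and the share over all autosomes, 24.1%, as a dashed line. The numbers give members over all HT EZH2 islands, and the intervals of chromosomes 3 and 5 lie above the line and those of chromosomes 2 and 6 below it.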

How the data were processed

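The deposited lists, 1 per library, hold positions and a score for every island. The score is the authors' own whole number per island as deposited, on a scale that no source used here defines, and was used only to rank and describe HT EZH2 islands. Per the submitters' processing notes, SICER was used on hg19. Per the names of the deposited files, the window was 150 bp, the gap 450 bp and the FDR 1e-07. No source used here names the aligner, the read filters or the control. Positions are hg19, counted from 1. Widths, distances (bases between islands, 0 where they touch) and overlaps of at least 1 bp were computed with Python 3.11.15, numpy 2.4.6, scipy 1.17.1, pandas 2.3.3 and matplotlib 3.10.9. They were tested on 2500 simulated islands, of which 100% were classed rightly. Intervals of shares are exact (Clopper-Pearson, 95%), the upper limit for a count of 0 is 3 counts of the total, and those of medians come from binomial order statistics. The islands and measures were chosen with earlier results of these data known. Named regions are the 10 widest members, the 10 with the highest score per kb, the 10 farthest from all marks, the 5 largest groups within 100 kb, and the 5 longest island-free stretches with a member. The comparison with the lowest score at like width, the 500 kb neighbourhoods and the 10 Mb windows were added after values were seen. Genes nearest to the named regions and the B cell markers planned as a check of the lines were not looked up, since no annotation of hg19 was used here. Other overlap, score, width, joining, margin and distance settings were tried.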

Additional observations from a re-analysis of the deposited data

How the results depend on the processing

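No paired analysis was possible because each line and antibody had 1 library. Of 72 values under other settings, 42 stayed within the interval of the reported value, or within 1.5 times the count, and 30 did not. With an overlap of 50% of the EZH2 island in place of 1 bp, there were 1002 members, with a median width of 3750 bp, 2.79% over SUDHL6 H3K27me3, 51.8% within 5 kb of an HT mark, 3.49% over 100 kb from every mark and 20.2% with another member within 100 kb. All 604 islands were among the 1002. The islands added are overlapped in part by a list of the choice, so the higher share near an HT mark is largely by construction. The counts over SUDHL6 H3K27me3 (28) and over 100 kb from every mark (35) did not change, so those shares fell with the larger total. With the 50% of every list with the highest scores there were 262 members (154 of them among the 604), with a median width of 5400 bp, 16.4% over SUDHL6 H3K4me3, 13.4% within 5 kb of an HT mark, 12.6% over 100 kb from every mark, 9.92% with another member within 100 kb and 11.5% in or near a stretch of 1 Mb. That setting thins the mark lists too, so fewer islands could be met. With only the HT EZH2 list so reduced there were 154 members, with a median width of 5700 bp, 12.2 per kb, 18.8% over SUDHL6 H3K4me3, 24.0% within 5 kb of an HT mark, 3.90% over 100 kb from every mark and 9.09% with another member within 100 kb. Of these 154, 0 lay in or near a stretch of 1 Mb, which by the limit of 3 counts in 154 allows a share of up to 1.95%. A margin of 2 kb around the 3 lists left 555 members and 13.3% within 5 kb of an HT mark, since the nearest were removed by construction. Other distances moved the shares as they must: 3.48% within 1 kb and 50.2% within 20 kb of an HT mark, 13.6% over 50 kb and 0.993% over 250 kb from every mark, 6.46% and 41.6% with another member within 20 and 500 kb, and 6.13% and 0.166% in or near stretches of 500 kb and 3 Mb. Depth and the lack of replicates limit what a missing overlap can show.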

Other observations

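In SUDHL6, the islands that meet the mirrored choice (EZH2 of SUDHL6 alone, with neither SUDHL6 mark) numbered 318 of 1500 (21.2%, 19.2 to 23.4%), and their median width was 3450 bp as well. They lay nearer to H3K27me3 than to H3K4me3 of their own line, with medians of 27.6 and 53.7 kb, where the HT islands had 97.5 and 30.9 kb. The order of the marks was thus turned, and this difference between the lines was not tested. Over 100 kb from every mark lay 17 (5.35%), and 1 (0.314%) lay in or within 100 kb of a stretch of 1 Mb or more without islands of the other 5 lists.

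By windows of 10 Mb, chosen after their values were seen, members were most numerous between 60 and 70 Mb of chromosome 10, with 12 of 19 HT EZH2 islands (63.2%). The next was 170 to 180 Mb of chromosome 5, with 11 of 17 (64.7%). There were 10 each between 20 and 30 Mb of chromosome 16 (of 23) and between 40 and 50 Mb of chromosome 20 (of 26). Of 279 windows with an HT EZH2 island, 216 held a member and 35 held 5 or more.

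The last or first island of any list on a chromosome was 1 of the 604 members in 3 cases. It was 1 of the 975 islands with H3K27me3 in 1 case, and in 0 cases 1 of the 640 with H3K4me3 or of the 289 of both lines. These counts are too small to compare the classes. Besides the island on chromosome 21, the members were chr10:135510901-135515100 (4.2 kb, score 48) and chr5:180894901-180897750 (2.85 kb, score 42). Their nearest mark was SUDHL6 H3K27me3, at 54.45 and 10.95 kb, with HT H3K4me3 at 175 and 118 kb.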
